A study of Mus musculus with 31 samples.

Results

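Rnd1, Fhl2, Lmod2 and Ebf1 are the 4 genes, of 22609 listed in the count tables of mouse masseter muscle (MM), described here across 9 groups of mice. They were selected on their levels, in CPM (counts of a gene as a share of the library total, scaled by TMM factors), because those at 5d after injection of complete Freund's adjuvant (CFA) lay below those of every vehicle-treated mouse of the CFA experiment, so the values of that comparison describe the choice and were not tested. The question was whether collagenase lowers these genes too. Bulk RNA-seq libraries, 1 per mouse, came from 31 adult male C57BL/6J mice of 2 to 4 months whose left MM was injected and dissected. The CFA experiment held 3 vehicle-treated mice (CFA_control), 3 mice at 1d post-CFA and 3 mice at 5d post-CFA. In the collagenase type 2 (Col) experiment, 3 mice received vehicle (Contr), 0.2U Col went to 4 mice labelled 1C and 4 labelled RPC, and 4, 3 and 4 mice received 10U Col and were labelled as 2d, 6d and 12d post-Col. Vehicle was phosphate-buffered saline in both experiments. The labels give no day for either vehicle group or for the 0.2U groups, and for 2 of the 10U groups the study's text names other days than the labels, which are used here.

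The 4 genes have different roles in muscle. Rnd1 encodes an atypical small GTPase that stays bound to GTP and binds plexin receptors, and actin stress fibers are lost where it is abundant. Fhl2 encodes a protein of several LIM domains that binds structural proteins at the Z-disc and acts as a transcriptional cofactor, and its gene is a known target of serum response factor (SRF). Lmod2 encodes leiomodin 2, which nucleates actin and lengthens thin filaments at their pointed ends, where tropomodulins cap them. Ebf1 encodes a transcription factor best known from B-cell commitment, which is also present in adipocyte precursors, fibroblasts and pericytes and has a reported role in muscle, where EBF factors raise the gene of a calcium pump. CFA is mycobacterial antigen in oil that causes local inflammation, and collagenase cleaves the collagen of the tissue.

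In mouse genome build mm9 with GENCODE vM1 genes, Rnd1 lies at chr15:98493852-98507892 on the minus strand, Fhl2 at chr1:43179919-43220806 on the minus strand, Lmod2 at chr6:24547771-24555414 on the plus strand and Ebf1 at chr11:44430819-44821593 on the plus strand. Their annotated exons add up to 2967 bases for Rnd1, 1563 for Fhl2, 1967 for Lmod2 and 9756 for Ebf1. Of the 50-base windows of the transcripts, 0.103% of those of Rnd1 also occurred in another gene, and none of those of the other members did. The annotated gene Gm12158 lies opposite Ebf1, and whether the counting used the strand of a read is not given in the sources used here, so its reads could be among those of Ebf1.

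The promoter sequences are shown because the members were low together at 5d post-CFA, and Fhl2 is the one among them with a textbook SRF link. RefSeq (build GRCm38.p6) gave the 250 bases before the transcript start for 3 of the 4 members. They were searched on both strands for the CArG box, which SRF binds, and for the site of the muscle factor MEF2. Capitals mark these matches in the 2 windows of Fhl2, at chr1:43196762-43197011 and chr1:43163962-43164211 on the minus strand, and would mark them in that of Lmod2, at chr6:24597521-24597770 on the plus strand, all written 5′ to 3′.
Fhl2 window 1: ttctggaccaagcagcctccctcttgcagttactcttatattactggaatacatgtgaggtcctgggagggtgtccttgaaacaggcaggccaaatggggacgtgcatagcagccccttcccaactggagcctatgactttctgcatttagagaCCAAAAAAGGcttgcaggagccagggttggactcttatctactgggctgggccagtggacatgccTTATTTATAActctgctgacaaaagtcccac
Fhl2 window 2: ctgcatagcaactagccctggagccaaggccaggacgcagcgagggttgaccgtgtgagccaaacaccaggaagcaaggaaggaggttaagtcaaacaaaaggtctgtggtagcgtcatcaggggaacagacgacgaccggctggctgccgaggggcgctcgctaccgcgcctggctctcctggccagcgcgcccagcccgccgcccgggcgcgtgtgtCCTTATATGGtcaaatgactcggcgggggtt
Lmod2: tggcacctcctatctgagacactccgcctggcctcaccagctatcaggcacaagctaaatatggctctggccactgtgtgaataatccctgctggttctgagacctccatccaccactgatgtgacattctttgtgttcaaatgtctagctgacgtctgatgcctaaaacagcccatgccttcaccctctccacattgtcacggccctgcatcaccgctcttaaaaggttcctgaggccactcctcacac

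Window 1 of Fhl2 held a CArG box from 96 to 87 bases before the start and a MEF2 site from 31 to 22 bases before it, and window 2 held a CArG box from 31 to 22 bases before its start. The CArG box occurred in 1.468% and the MEF2 site in 2.917% of 32841 RefSeq promoter windows of the same length. The window of Lmod2 and the 2 windows of Ebf1 held neither. A match is a run of letters and not a shown binding site.

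The libraries held from 14843778 to 29076671 reads counted on genes (median 20834472), and 10 counts amounted to 0.344 to 0.674 CPM. No 2 libraries held identical values. The sum of 21 muscle fiber genes, including Acta1 and Ckm, reached 59720 to 317100 CPM in the 31 mice. Markers of salivary gland, which lies near the MM, differed more: 10 of 11 salivary marker genes were in the tables, and their sum ranged from 12.3 to 324700 CPM. At 5d post-CFA it was 143700 to 181700 CPM in all 3 mice, against 136.6, 126.5 and 16410 CPM in the vehicle-treated mice of that experiment. In Contr it was 92.5, 163400 and 46990 CPM, in group RPC 29260 to 324700, in group 1C 142.0 to 39740, at 2d post-Col 52.4 to 134500, and at 6d 12.3 to 39.2 CPM. Among these markers, Dcpp2 and Prol1 had no counts in 11 libraries each and Muc19 none in 9. Values for the members are therefore given by mouse, and tests were repeated without the libraries rich in these markers.

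At 5d post-CFA, every mouse had less of all 4 members than any vehicle-treated mouse. Rnd1 had 6.23, 7.67 and 6.19 CPM in the 3 mice, against 23.6, 19.1 and 15.0 CPM in the vehicle-treated mice. Fhl2 had 15.6, 22.6 and 20.4 CPM against 63.4, 41.3 and 45.0 CPM. Lmod2, the most abundant of the 4 per length, had 188.8, 170.0 and 137.2 CPM against 348.1, 402.6 and 396.8 CPM. No mouse at 5d reached the lowest vehicle-treated mouse for any of these genes. Ebf1 had 17.6, 14.7 and 14.9 CPM against 37.8, 39.9 and 31.4 CPM. The log2 fold changes were -1.47 (SE 0.21) for Rnd1, -1.31 (SE 0.22) for Fhl2, -1.17 (SE 0.19) for Lmod2 and -1.16 (SE 0.15) for Ebf1 as a description of the chosen genes. Over all 14026 genes of this comparison, 0.0428% were called lower and 1.06% higher in edgeR, and nothing is read from these shares for the members. All mice at 5d were below all vehicle-treated mice in 6.89% of the tested genes.

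The salivary markers moved with this group, and their part in the result was not tested, because every mouse at 5d and 1 of 3 vehicle-treated mice had over 10000 CPM of them. In that vehicle-treated mouse (16410 CPM of salivary markers, against 143700 to 181700 CPM at 5d) Rnd1 was at 15.0, Fhl2 at 45.0, Lmod2 at 396.8 and Ebf1 at 31.4 CPM. The choice of the genes placed these values above every mouse at 5d, so they do not bear on the part of the salivary markers. In the Contr mouse with 163400 CPM of salivary markers, Rnd1 was at 16.9 CPM, its highest value in Contr, whereas Ebf1 was at 15.0 CPM, its lowest. Expressed as counts per fiber count, on the scale of CPM but with the sum of the 21 fiber genes as the total, the ranges at 5d and with vehicle were 31.99 to 40.7 and 60.1 to 98.3 for Rnd1, 94.5 to 108.1 and 130.2 to 294.8 for Fhl2, and 61.2 to 114.8 and 125.8 to 205.4 for Ebf1, without overlap. Lmod2, at 709.7 to 1234 and 1161 to 2597, overlapped on this scale. These ranges come from the mice that chose the genes, so they describe the choice and were not tested. The share of all genes without overlap on this scale was not computed. With the fiber genes as the reference of the fit, the log2 fold changes were -1.17 for Rnd1 (SE 0.36), -1.06 for Fhl2 (SE 0.34), -0.91 for Lmod2 (SE 0.38) and -0.84 for Ebf1 (SE 0.36). In bulk tissue, fewer cells that express a gene and less of its RNA per cell cannot be told apart.

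At 1d post-CFA the members did not move together. Rnd1 had 20.4, 17.9 and 20.4 CPM, within the range of the vehicle group (log2 fold change 0.03, SE 0.20). Fhl2 had 9.57, 51.0 and 23.4 CPM, 2 of them below the vehicle group and 1 inside it (-0.82, SE 0.54). Lmod2, at 428.3, 529.1 and 560.7 CPM, was above every vehicle-treated mouse (0.41, SE 0.24). For that gene the 3.05% of 13944 genes whose mice at 1d were all higher is the background, and no gene was called in either direction at 1d. Ebf1 had 22.8, 50.2 and 25.1 CPM, around the vehicle group (-0.15, SE 0.32). From 1d to 5d, the log2 difference was -1.51 (SE 0.18) for Rnd1, -1.58 (SE 0.22) for Lmod2 and -1.03 (SE 0.32) for Ebf1, with no overlap of the mice, and -0.50 (SE 0.53) for Fhl2, with overlap, where 12.1% of 14046 genes were lower in all mice at 5d, 0.99% were called lower and 4.85% higher. These values share the mice at 5d with the comparison that chose the genes and were not tested.

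**Figure D1:**
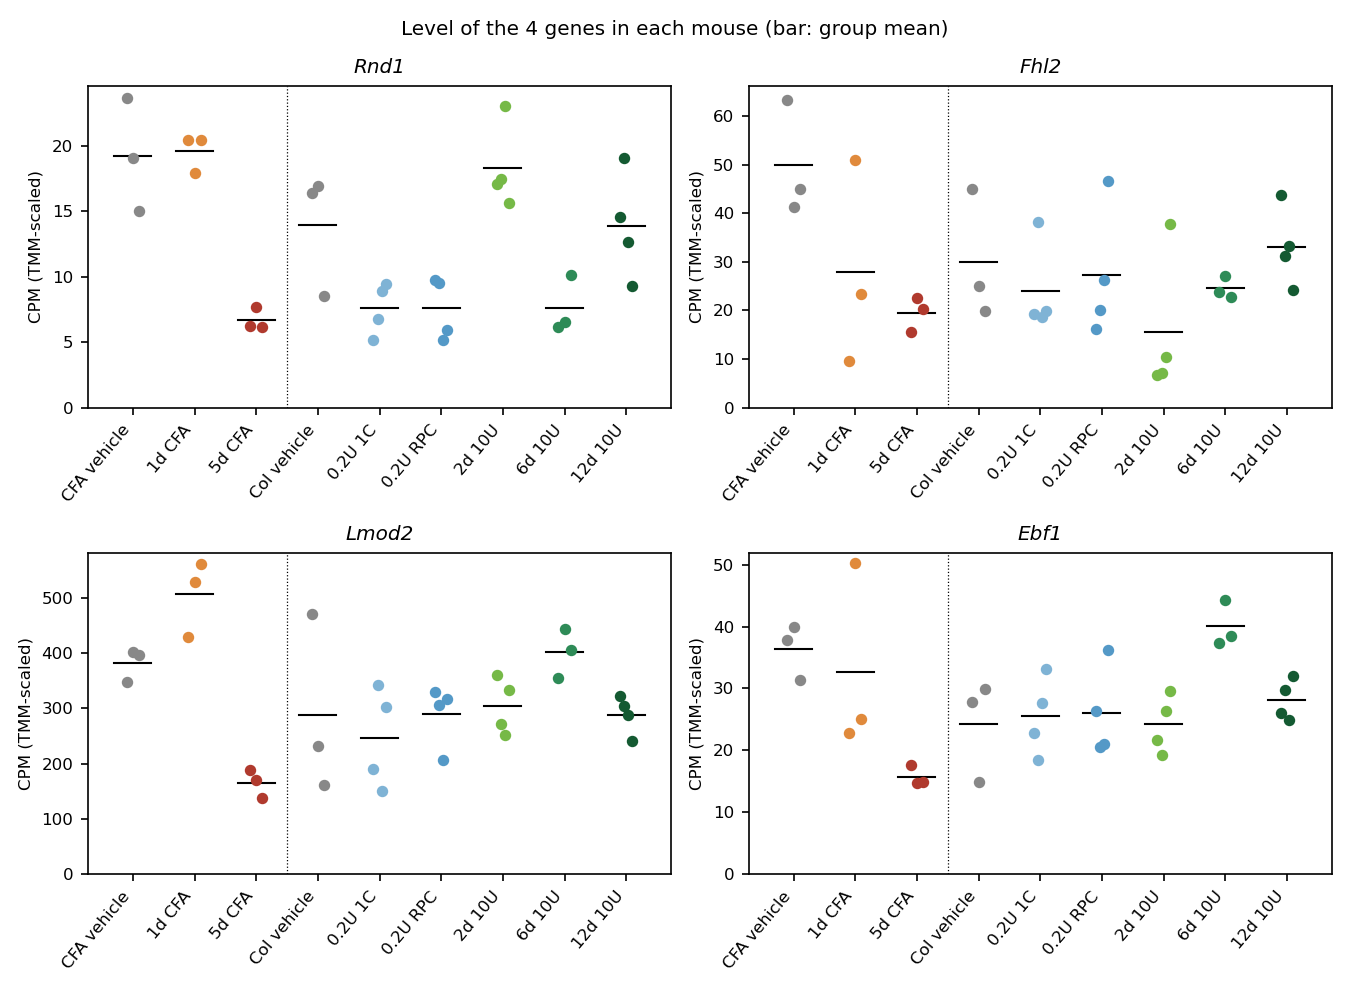
Level of Rnd1, Fhl2, Lmod2 and Ebf1 in each of the 31 mice as TMM-scaled CPM (linear axes from 0), by group, with CFA groups left and Col groups right of the dotted line and bars at the group means. The mice at 5d post-CFA lie below all CFA vehicle mice in every panel, the 6d Col (10U) mice are low for Rnd1 (6.14 to 10.1 CPM) and high for Ebf1 (37.3 to 44.3 CPM), and 3 of 4 mice at 2d post-Col (10U) are low for Fhl2.

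Ordered by mean level, the 9 groups formed no steps for any member, since each group overlapped with the next in that order. Rnd1 ran from 19.6 CPM at 1d post-CFA to 6.69 CPM at 5d post-CFA, just under group 1C with 7.57, group RPC with 7.57 and 6d post-Col with 7.59 CPM. Fhl2 ran from 49.9 CPM in CFA_control to 15.6 CPM at 2d post-Col, with 5d post-CFA next to last at 19.5 CPM. Lmod2 ran from 506.0 CPM at 1d post-CFA to 165.3 CPM at 5d post-CFA, and Ebf1 from 40.0 CPM at 6d post-Col to 15.7 CPM at 5d post-CFA. The mean levels of the vehicle groups were not the same. The log2 difference of CFA_control from Contr, which was not tested, was 0.44 (SE 0.31) for Rnd1, 0.71 (SE 0.34) for Fhl2, 0.39 (SE 0.40) for Lmod2 and 0.56 (SE 0.28) for Ebf1 on the log2 scale, and for Ebf1 the mice of these groups did not overlap, as for 2.63% of 14070 genes in this direction, with 0% called higher and 0.0426% called lower in CFA_control. Experiment and vehicle group cannot be told apart, so CFA and Col groups were each read against their own vehicle group.

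None of the 4 members passed the test as lower in any of the 5 Col groups against Contr by edgeR (quasi-likelihood test, p adjusted over all tested genes by Benjamini-Hochberg, under 0.05). Genes called lower made up 0% of 14493 genes in group 1C, 0% of 14269 in group RPC, 1.08% of 14373 at 2d, 13.3% of 14281 at 6d and 0.466% of 14176 at 12d post-Col. Genes called higher made up 0%, 0%, 1.14%, 14% and 0.762%, and no member was among them. At 2d, the count of 155 genes called lower ranged from 2 (without replicate 1 or 2 of 2d) to 2605 (without replicate 4 of 2d). At an unadjusted p under 0.05, 1 member, Rnd1, was lower in each of the groups 1C, RPC and 6d and 0 at 2d and 12d, beside 5.73%, 7.15%, 21.9%, 15.8% and 7.77% of all genes in that direction, in the same order. DESeq2 called 1 member lower at 6d, again Rnd1, and 0 in the other 4 groups. Of all genes, DESeq2 called 2645 of 14281 lower at 6d, 1639 of 14373 at 2d and 383 of 14176 at 12d. In groups 1C and RPC, DESeq2 called 159 and 254 of all genes lower and 360 and 189 higher.

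Rnd1 was the member with an interval below 0 in 3 of the Col groups. It had 16.3, 16.9 and 8.55 CPM in Contr and 5.17, 6.73, 8.92 and 9.45 CPM in group 1C, which gave a log2 fold change of -0.87 (SE 0.31, 95% interval -1.59 to -0.15) and an adjusted p of 0.335 in edgeR's test. In group RPC it had 9.71, 9.47, 5.16 and 5.94 CPM, a log2 fold change of -0.85 (SE 0.32, interval -1.59 to -0.11) and the same adjusted p of 0.335. In both groups every mouse lay below 2 of the 3 Contr mice, and the third Contr mouse overlapped with them. With the fiber genes as reference the changes were -0.27 in group 1C and -0.18 in group RPC (adjusted p = 0.474 and 0.629, edgeR). That reference moved the median of all genes to 0.54 in group 1C and 0.63 in group RPC, and Rnd1 stayed below both medians. The fiber genes summed to 130500 to 174700 CPM in group 1C and 125300 to 164300 CPM in group RPC, 10 keratinocyte genes to 329.9 to 756.4 and 148.5 to 683.0 CPM (81.1 to 226.2 in Contr), and 8 adipocyte genes to 543.1 to 2324 and 904.4 to 1416 CPM (410.1 to 753.5 in Contr), and their part in the result was not tested. At 6d post-Col (10U) Rnd1 had 6.14, 6.50 and 10.1 CPM, a log2 fold change of -0.89 (SE 0.32, interval -1.64 to -0.14) and an adjusted p of 0.0744 in edgeR's test. Without the lowest Contr mouse, replicate 3 with 8.55 CPM, the change at 6d was -1.17 and was called (adjusted p = 0.0176, edgeR). With all mice, scaling to fiber genes turned the change at 6d to 0.33 (adjusted p = 0.399, edgeR), where the median of all genes was 1.21. At 2d and 12d post-Col the levels of Rnd1 reached into or above those of Contr, with 15.6 to 23.0 and 9.28 to 19.1 CPM, and log2 fold changes of 0.36 (SE 0.27) and 0.03 (SE 0.30).

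Fhl2 differed most at 2d post-Col, where 3 mice had 6.74, 7.13 and 10.5 CPM and the fourth had 37.9 CPM, against 45.1, 24.9 and 19.8 CPM in Contr. The first 3 lay below every Contr mouse and the fourth lay among them, so that the log2 fold change of -0.97 (SE 0.64) had an interval from -2.45 to 0.51 and an adjusted p of 0.313 in edgeR's test. Without that mouse, replicate 4, the change was -1.92 (SE 0.36) with an adjusted p of 0.00709 (edgeR). That mouse also had the highest fiber gene sum of its group, 110400 CPM against 59720 to 68830 CPM in the other 3. Scaling to fiber genes turned the change of Fhl2 to 0.43, where the median of all genes was 1.62. Fhl2 was at 18.6 to 38.3 CPM in group 1C, 16.1 to 46.7 CPM in group RPC, 22.8 to 27.01 CPM at 6d and 24.3 to 43.8 CPM at 12d, all overlapping with Contr, with log2 fold changes from -0.31 to 0.18.

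Lmod2 was not called in any Col group against Contr. Contr spanned 471.4, 232.1 and 160.6 CPM, and the mouse with 471.4 CPM was the one with 92.5 CPM of salivary markers. Group 1C had 189.5, 342.2, 149.8 and 302.3 CPM, group RPC 330.1, 305.3, 206.7 and 316.7 CPM and 2d post-Col 360.3, 271.6, 251.0 and 332.9 CPM. All of these groups overlapped with Contr. At 6d it had 355.2, 443.8 and 405.2 CPM, a log2 fold change of 0.46 (SE 0.38, edgeR's adjusted p = 0.387, and 1.01 with adjusted p = 0.0416 without replicate 1 of Contr), and at 12d 241.2 to 321.5 CPM, a log2 fold change of 0.05 (SE 0.33). In the fit of 6d without replicate 1 of Contr, 1082 of all 14128 genes were called higher. The lower bounds of the 95% intervals were -1.19 in group 1C and -0.81 to -0.43 in the other 4 groups. Without the libraries over 10000 CPM of salivary markers, which left 1 mouse in Contr, 3 in group 1C, 1 at 2d and all at 6d and 12d, the changes were -0.75, -0.99, -0.30 and -0.73 in these groups, none of them called (adjusted p = 0.318, 0.0801, 0.482 and 0.221, edgeR).

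Ebf1 was not called in any Col group either, and its mean was highest at 6d. Its Contr values were 27.8, 15.0 and 29.9 CPM, and at 6d post-Col it had 37.3, 44.3 and 38.5 CPM, above every Contr mouse, as were 26% of all tested genes in this comparison. The log2 fold change was 0.69 (SE 0.27, interval 0.05 to 1.33), with an adjusted p of 0.0944 in edgeR's test, and 0.85 with an adjusted p of 0.0471 without replicate 3 of Contr. In the fit without that mouse, 2978 of all 14050 genes were called higher. Group 1C held 18.5 to 33.2 CPM, group RPC 20.5 to 36.1 CPM, 2d post-Col 19.3 to 29.5 CPM and 12d post-Col 24.9 to 31.99 CPM, and the log2 fold changes ran from -0.05 to 0.24. The lower bound of the interval was -0.72 or higher in all 5 Col groups.

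**Figure D2:**
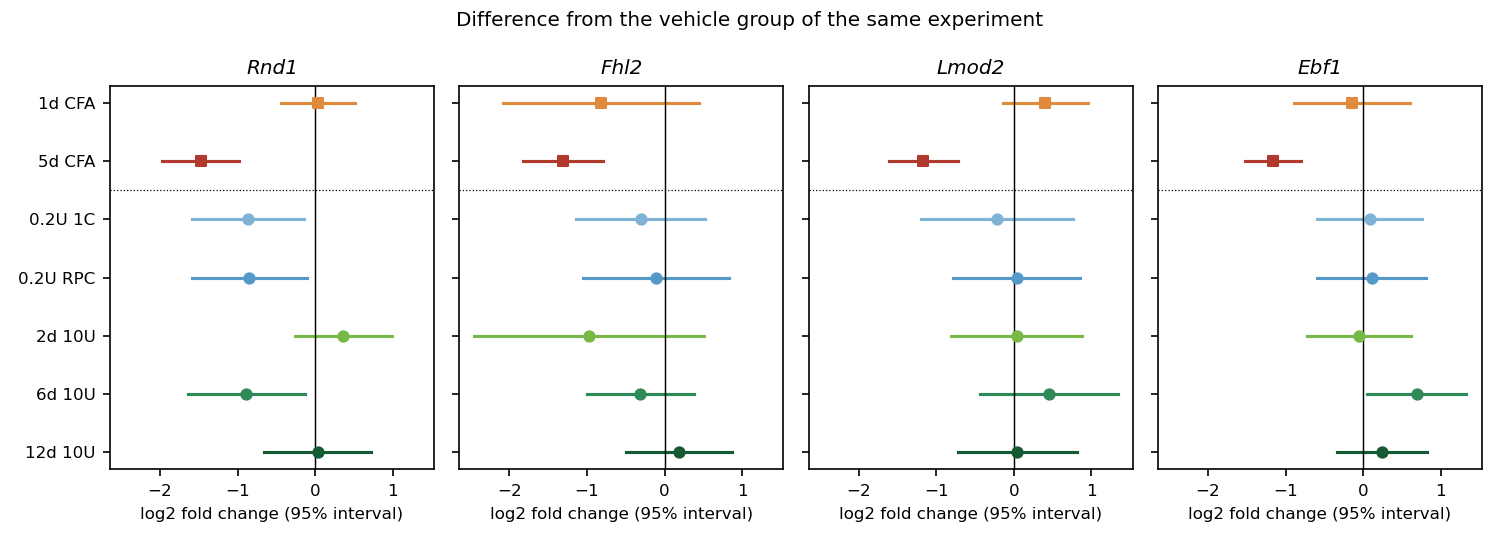
Log2 fold change of each member against the vehicle group of its own experiment with its 95% interval, squares for CFA groups (description of the choice of genes) and circles for Col groups. At 5d post-CFA all 4 values lie from -1.47 to -1.16, whereas in the Col groups the intervals of Lmod2 include 0 everywhere, those of Rnd1 lie below 0 in groups 1C, RPC and 6d, and that of Ebf1 lies above 0 at 6d.

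Between the days after 10U Col, Rnd1 and Ebf1 changed in opposite directions. From 2d to 6d, Rnd1 fell from 17.0, 17.4, 23.0 and 15.6 CPM to 6.14, 6.50 and 10.1 CPM, a log2 fold change of -1.25 (SE 0.25, edgeR's adjusted p = 0.0268), and it was the 1 member among the 4.05% of 14513 genes called lower. The mice of these days did not overlap, as for 12.5% of all tested genes in this direction. Ebf1 rose over the same days by 0.74 (SE 0.17, edgeR's adjusted p = 0.042), from 21.6, 19.3, 26.4 and 29.5 CPM to the values at 6d given above, where 4.68% of the genes were called higher and 11.6% were higher in all mice. Lmod2 and Fhl2 changed by 0.42 (SE 0.20) and 0.66 (SE 0.60) and were not called (adjusted p = 0.225 and 0.539, edgeR). Without replicate 1 or 2 of either day, neither was called (adjusted p from 0.0574 to 0.151 for Rnd1 and from 0.105 to 0.171 for Ebf1, edgeR). Without replicate 3 of 6d, Rnd1 was called and Ebf1 was not (adjusted p = 0.0995, edgeR), and Ebf1 was not called with a salivary covariate (0.37, adjusted p = 0.609, edgeR), without the salivary-rich libraries (0.61, adjusted p = 0.366), with the fiber genes as reference (0.38, adjusted p = 0.414) or in 1 fit of all libraries (adjusted p = 0.0541).

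From 6d to 12d, Ebf1 was the 1 member that passed the test. It fell to 26.1, 29.7, 24.9 and 31.99 CPM, by 0.49 on the log2 scale (SE 0.11, edgeR's adjusted p = 0.0235), as 13% of 14344 genes were called lower and 13.4% higher. Lmod2 changed by -0.45 (SE 0.17, adjusted p = 0.0796, edgeR), to 321.5, 304.7, 287.1 and 241.2 CPM, all below the mice at 6d, as were 18.7% of the genes. Rnd1 was at 14.6, 19.1, 12.6 and 9.28 CPM at 12d, a difference of 0.89 (SE 0.29, adjusted p = 0.0545, edgeR). Fhl2 was at 43.8, 31.3, 33.2 and 24.3 CPM (0.46, SE 0.20, adjusted p = 0.114, edgeR). The call of Ebf1 was lost without any 1 of these mice except replicate 4 of 12d (adjusted p from 0.0506 to 0.108, edgeR) and with the fiber genes as reference (adjusted p = 0.115). Without replicate 4 of 12d, all 4 members were called, with adjusted p from 0.00305 to 0.0431 (edgeR). In that fit, 4133 of all 14194 tested genes were called lower and 3554 higher. Between 2d and 12d no member was called in either direction with edgeR, against 5.35% of 14459 genes called lower and 3.4% called higher. These shares changed with single mice: 0 genes were called without replicate 1 of 12d, and 3009 lower and 3138 higher without replicate 4 of 2d. The unadjusted p-values of that comparison were 0.0624 for Fhl2, 0.101 for Ebf1, 0.201 for Rnd1 and 0.994 for Lmod2, and 0 were under 0.05. DESeq2 called 0 members lower there, beside 2330 of 14459 genes. Without replicate 4 of the 2d group, Fhl2 was higher at 6d by 1.61 (adjusted p = 0.00154, edgeR) and at 12d by 2.10 (adjusted p = 0.000868) than at 2d. In these fits, 1999 of 14234 genes were called higher at 6d and 3138 of 14249 at 12d.

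Cell and tissue markers moved along with these days. At 6d the sum of 14 leukocyte genes was 1409 to 2681 CPM (227.7 to 1312 in Contr), that of 10 fibroblast genes 9308 to 14390 CPM (3292 to 9895), and that of 8 slow fiber genes 572.2 to 1074 CPM (154.0 to 180.9). Of the slow fiber genes, Atp2a2 had a median of 166.8 CPM over all 31 libraries, and each of the others 6.43 CPM or less. The sum of 7 Schwann cell genes was 110.6 to 330.4 CPM at 6d, below the 606.6 to 1939 CPM in Contr. The 21 fiber genes summed to 76520 to 118600 CPM at 6d and 59720 to 110400 CPM at 2d, against 167300 to 261600 CPM in Contr. The 8 B-cell genes summed to at most 35.9 CPM in any mouse, while Ebf1 was at 14.7 CPM or more in all 31. The part of these markers in the results was not tested. With the fiber genes as reference, which moved the median of all genes to 1.62 at 2d and 1.21 at 6d on the log2 scale, Rnd1, Lmod2 and Ebf1 were at 2.06, 1.73 and 1.48 at 2d. On that scale, Lmod2, Ebf1, Fhl2 and Rnd1 were at 1.75, 1.86, 0.96 and 0.33 at 6d. With the salivary covariate in 1 fit of all libraries, Rnd1 was called lower at 6d (-1.10, adjusted p = 0.0244, edgeR). Without the libraries over 10000 CPM of salivary markers, which kept 1 Contr mouse and no mouse of group RPC, the change of Rnd1 at 6d was -1.17. That of Fhl2 at 2d was -2.18 in this fit, where 1 mouse per group remained and was assumed to vary like the others.

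**Figure D3:**
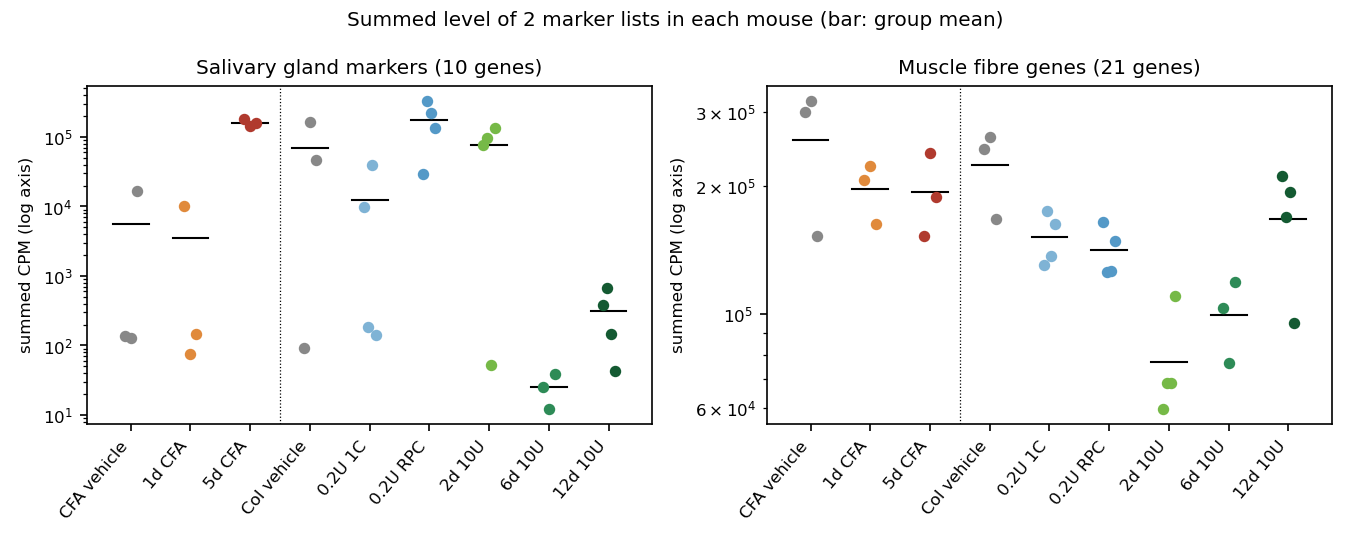
Summed TMM-scaled CPM (log axes) of 10 salivary gland markers and of 21 muscle fiber genes in each mouse, with bars at group means. All mice at 5d post-CFA are between 143700 and 181700 CPM of salivary markers, the 6d post-Col mice are between 12.3 and 39.2 CPM, and fiber sums are lowest at 2d and 6d post-Col.

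Levels of paralogs were compared per length, as RPKM, which is CPM divided by exon length in kilobases. In Contr, Lmod2 was at 146.4 RPKM, above Lmod3, the other leiomodin of striated muscle, at 74.9 and the smooth muscle leiomodin Lmod1 at 9.67 RPKM. Fhl2, at 19.2 RPKM, was far below the muscle paralogs Fhl1 and Fhl3, at 530.0 and 237.8 RPKM. The 3 Rnd genes were close, with 4.69 RPKM for Rnd1, 3.43 for Rnd3 and 1.93 for Rnd2, and so were Ebf3, Ebf2 and Ebf1 with 3.83, 2.49 and 2.48 RPKM, whereas Ebf4 was at 0.324 RPKM. At 5d post-CFA, levels were 2.26 RPKM for Rnd1 and 2.80 for Rnd3, and 84.1 RPKM for Lmod2 and 64.5 for Lmod3, where CFA_control had 6.48 and 2.77, and 194.5 and 76.4 RPKM. Other paralogs were lower at 5d too, which was not tested. The log2 fold change was -0.77 for Lmod1 and -0.72 for Ebf4, without overlap of the mice, as for 6.89% of all tested genes. With overlap, it was -0.76 for Fhl3, -0.32 for Ebf2, -0.30 for Rnd2 and -0.26 for Ebf3. Lmod3 was at -0.20, Rnd3 at 0.05 and Fhl1 at 0.21, also with overlap. Rnd3, like Rnd1 an atypical GTPase that stays bound to GTP, rose at 6d post-Col by 0.99 (SE 0.30, edgeR's adjusted p = 0.0458), with 4.25 to 8.36 RPKM against 2.82 to 4.27 in Contr, while Rnd1 was at 2.07 to 3.41 RPKM. The call of Rnd3 was lost without replicate 2 or 3 of 6d or replicate 1 or 2 of Contr (adjusted p from 0.106 to 0.154, edgeR) and in both salivary fits (0.0978 and 0.1). Fhl3 fell at 6d by 1.15 (SE 0.29, edgeR's adjusted p = 0.0261), from 237.8 to 108.4 RPKM, and turned to 0.05 with the fiber genes as reference, where the median of all genes was 1.21. The call of Fhl3 was lost without any 1 of these mice except replicate 3 of Contr (adjusted p from 0.051 to 0.0967, edgeR), with library totals (0.118) and with the salivary covariate (0.0821). Lmod3 rose from 2d to 6d by 1.27 (SE 0.23, edgeR's adjusted p = 0.0195), from 49.9 to 118.6 RPKM. That call was lost without any 1 mouse of 6d, without replicate 1 or 2 of 2d (adjusted p from 0.0577 to 0.0797, edgeR), with the fiber genes as reference (0.0931) and with the salivary covariate (0.0641).

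**Figure D4:**
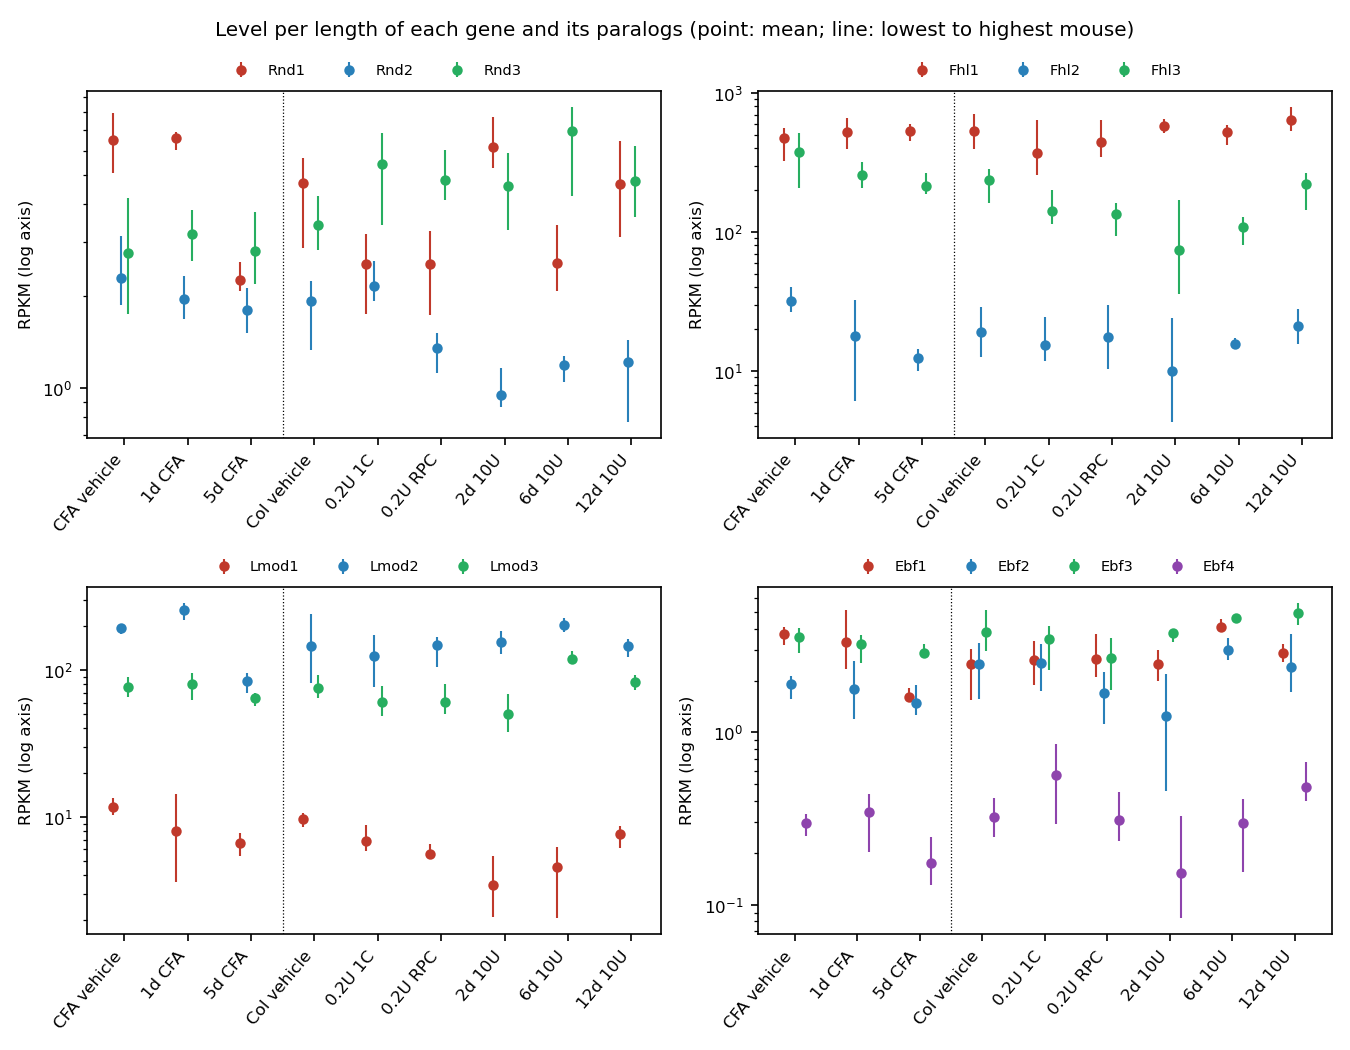
Mean RPKM (log axes) of each member and its paralogs in the 9 groups, with lines from the lowest to the highest mouse. Lmod2 is the highest leiomodin and Fhl2 the lowest FHL gene shown in each group mean, and Rnd1 lies below Rnd3 in 5 group means, most at 6d post-Col (2.56 against 6.98 RPKM).

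Among the tropomodulins, which cap the filament ends that leiomodins lengthen, Tmod1 and Tmod4 passed the test against Contr. Tmod1 fell by 2.14 (SE 0.28, edgeR's adjusted p = 0.0257) at 2d and by 1.92 (SE 0.23, adjusted p = 0.00326) at 6d post-Col, from 600.7 CPM in Contr to 139.4 and 160.8 CPM. The call of Tmod1 at 2d was lost in 5 of 7 fits with 1 mouse left out (adjusted p up to 0.111, edgeR) and with the fiber genes as reference (-0.61). Tmod4 fell by 1.54 (SE 0.36, edgeR's adjusted p = 0.0222) at 6d, and by 0.38 with the fiber genes as reference, where it was not called (adjusted p = 0.242). Its call was also lost without any 1 mouse of 6d or replicate 1 of Contr (adjusted p from 0.0538 to 0.0575, edgeR). With the replicate number as a term it was lost too (0.066). Of 22 tested genes of the thin filament list, 3 fell and 3 rose at 6d, beside 13.3% and 14% of all genes, and 2 fell and 0 rose at 2d, beside 1.08% and 1.14%, with median log2 fold changes of -0.43 and -0.49 against 0.01 and 0.02 over all genes. The counts at 6d were 1 lower and 11 higher with the fiber genes as reference, 2 and 6 with library totals, and 5 and 0 with the salivary covariate. Over all 14281 genes, 263 were called lower and 9381 higher with the fiber genes as reference. With library totals these numbers were 596 and 4369, and with the salivary covariate 1628 and 1563. The third to fall at 6d was Fhod1, an actin-organizing formin (-0.69, and 0.48 with the fiber genes as reference), and those that rose were Actc1, cardiac actin (2.28), Tpm3, a slow fiber tropomyosin (0.71), and Wdr1, which helps to take filaments apart (0.50). The list of Z-disc genes around the FHL proteins had 4 lower and 4 higher of 24 at 6d beside the same shares, with the fast fiber genes Myoz1 and Myoz3 and the titin cap Tcap lower (-1.85, -1.86 and -1.67) and the stress-responsive Ankrd1 and Ankrd2 and the slow fiber gene Myoz2 higher (6.42, 2.67 and 2.14). In that list, 0 were lower and 16 higher with the fiber genes as reference, 2 and 6 with library totals, and 4 and 1 with the salivary covariate. The numbers over all genes in these settings are those given above.

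Of 21 SRF-linked genes, 6 rose and 1 fell at 6d, beside 14% of all genes called higher: the immediate-early genes Egr3, Egr1 and Junb rose by 3.27, 2.13 and 1.94, and Myl9, a regulatory light chain, fell by 0.57 (0.62 with the fiber genes as reference). Of 12 tested genes of the EBF list, 0 were called in either direction at 6d by edgeR. In groups 1C and RPC and at 12d no gene of these 4 lists was called against Contr. At 5d post-CFA the medians were -0.18 for the thin filament list, -0.52 for the Z-disc list, -0.19 for the SRF list and -0.44 for the EBF list, against -0.02 over all genes. With 1 mouse left out at a time, genes called lower at 6d numbered 1 to 5 in the thin filament list and 0 to 5 in the Z-disc list, and among the named list genes the calls of Actc1, Ankrd1, Ankrd2 and Tmod1 were kept in each of these fits. In the SRF list, 1 to 7 genes were called higher and 0 to 2 lower. Over all alternative settings, 1 of which kept 1 Contr mouse, 0 to 14 genes of the SRF list were called higher at 6d. In the EBF list these were 0 to 9, and 0 to 2 genes were called lower in either list. With the fiber genes as reference, 9381 of all 14281 genes were called higher. Without replicate 2 of 6d, Egr1, Egr3 and Junb were not called (adjusted p = 0.0815, 0.0613 and 0.053, edgeR). Egr1 was also not called without replicate 1 or 3 of 6d or replicate 1 of Contr (0.0631 to 0.0902).

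Pairs of members differed in how closely they varied across all 31 libraries. Pearson's r of log2 CPM was 0.56 for Lmod2 and Ebf1, 0.51 for Rnd1 and Lmod2, 0.45 for Fhl2 and Ebf1, 0.29 for Fhl2 and Lmod2, 0.18 for Rnd1 and Ebf1 and 0.01 for Rnd1 and Fhl2. With group means removed, r ran from -0.11 for Rnd1 and Ebf1 to 0.42 for Fhl2 and Ebf1. Among 15526 genes, the closest to Rnd1 were Pnrc1 (r = 0.869), a nuclear receptor coactivator, Pdcd7 (0.824) and Clip4 (0.804), with 0.702, 0.646 and 0.467 within groups. The closest to Fhl2 were the amino acid transporter Slc38a3 (0.860), the muscle kinase Srpk3 (0.847) and Sbk2 (0.847), and their r within groups was 0.855, 0.827 and 0.840. The closest to Lmod2 were the amino acid transporter Slc7a6 (0.716), the potassium channel Kcnc4 (0.697) and Zfp703 (0.695), with 0.391, 0.547 and 0.624 within groups. The closest to Ebf1 were Stxbp4 (0.801), the muscle transcription factor Mef2a (0.763) and Trip12 (0.756), with 0.812, 0.760 and 0.768 within groups. These values describe libraries that share groups, depth and tissue composition. The libraries include the mice that chose the members, and no background r over pairs of other genes was computed.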

How the data were processed

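Bulk RNA-seq was run on polyadenylated RNA of MM (stranded TruSeq libraries, single 50-base reads), with 1 library per mouse, so p-values measure the spread between these mice. The authors aligned reads to mm9 and deposited whole-number counts per gene. The submitters' processing notes name bcl2fastq, TopHat2 and HTSeq. Versions, the annotation and the strand setting of counting are not given in the sources used here. The 5 closing lines of each table name no gene, held 41.7% to 58.9% of the reads, and were left out.

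Groups came from the sample titles. The members and lists were chosen with earlier results of these data known. Each pair of groups was fitted with edgeR 4.0.16 (R 4.3.3, limma 3.58.1) by the quasi-likelihood test with TMM scaling, after dropping genes that reached 10 counts in fewer than 3 libraries, and was tested on simulated data first. A gene was called at an adjusted p (Benjamini-Hochberg, over all tested genes) under 0.05. Intervals cover 95%, and comparisons with CFA mice carry no p. RPKM used GENCODE vM1 exon lengths, found for 21627 genes by symbol and 75 by synonym, with the median of 2839 bases for the other 907. Named genes were the members, their paralogs and tropomodulins, up to 3 genes with the largest fall and rise among those called in each list at 6d post-Col, and the 3 most correlated genes per member, taken from genes with enough counts. Alternatives were DESeq2 1.42.0, other scalings, no filter on low counts, 1 fit of all libraries, the replicate number as a term, mice left out in turn and, chosen after seeing the data, a salivary covariate and the omission of libraries over 10000 CPM of salivary markers. One further gene list is not reported here.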

Additional observations from a re-analysis of the deposited data

Results flagged for a closer look

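Fhl2 in group 1C had 1 mouse at 38.3 CPM, far above the other 3 at 18.6 to 19.9 CPM, and at 2d post-Col 1 mouse at 37.89 CPM, far above the other 3 at 6.74 to 10.5 CPM. These were the 2 cases among 16 checks of a member in a group of 4 mice, where chance gives about 1 in 20.

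Lmod2 went opposite ways at 1d and 5d post-CFA: every mouse at 1d was above and every mouse at 5d below the vehicle-treated mice, and the log2 fold change at 5d was lower by 1.57 (-1.572). Ebf1 went opposite ways at 5d post-CFA and 6d post-Col, where the log2 fold changes against the own vehicle group differed by 1.853. Neither difference was tested. Both include the comparison that chose these genes, and the second one spans 2 experiments.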

How the results depend on the processing

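Of 612 values of members under other settings, 470 kept direction and side of the threshold. In CFA comparisons, which have no p, this means a shift under 1 within-group SD. Another 77 changed sign, and 9 values of CFA comparisons moved by 1 SD or more. With the sign kept, 31 passed the threshold anew and 25 no longer passed it. Values that changed sign were counted only as such, also where they passed the threshold. The cause was not tested. Fiber genes as reference moved the median of all genes by up to 1.62 and library totals by up to 0.54, and with library totals 596 genes were lower and 4369 higher at 6d, against 1906 and 1994 with TMM. Depth limits little for members of 5 CPM or more, and the number of mice limits all tests.

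Members called lower changed as follows. At 6d against vehicle, 1 was called with DESeq2, with 1 fit of all libraries and with the salivary covariate. In these fits 2645, 2471 and 1628 of all 14281 genes were called lower. From 6d to 12d, 2 were called with DESeq2 and 0 with 1 fit of all libraries, the salivary covariate, salivary-rich libraries left out or fiber genes. DESeq2 called 2562 of all 14344 genes lower there. From 2d to 6d, 0 were called with library totals. From 2d to 12d, 2 were called with fiber genes, where 7633 of 14459 genes were called lower. At 2d against vehicle, Fhl2 was at -2.18 without salivary-rich libraries, where 1 mouse per group remained. With 1 mouse left out, counts ranged from 0 to 2 from 6d to 12d, from 0 to 1 at 2d and 6d against vehicle and from 2d to 6d, and stayed at 0 elsewhere. From 6d to 12d, the 2 came without replicate 4 of 12d, where 4133 of 14194 genes were called lower. At 2d against vehicle the 1 came without replicate 4 of 2d, beside 2605 of 14160 genes. At 6d against vehicle the 1 came without replicate 3 of Contr, beside 2879 of 14050 genes. Members were also called higher anew: Rnd1 from 6d to 12d with DESeq2 (adjusted p = 0.0168), 1 fit of all libraries (0.0289), the salivary covariate (0.0219), without salivary-rich libraries (0.0313) and without replicate 3 of 6d (0.047), Ebf1 at 6d against vehicle with library totals (0.0398), and with fiber genes Rnd1, Lmod2 and Ebf1 at 2d (0.0032, 0.00446 and 0.00799) and Lmod2, Ebf1 and Fhl2 at 6d (0.00467, 0.00566 and 0.0359), all by edgeR but the first. With fiber genes, 11099 of all 14373 genes were called higher at 2d and 9381 of 14281 at 6d. With library totals, 4369 of 14281 were called higher at 6d. From 6d to 12d, genes called higher numbered 2813 of 14344 with DESeq2, 1630 with 1 fit and 1597 with the salivary covariate. They numbered 2155 of 15080 without salivary-rich libraries and 1012 of 14208 without replicate 3 of 6d. Without salivary-rich libraries, which left 1 mouse at 2d, the change of Fhl2 from 2d to 12d was 1.72.

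Log2 fold changes that changed sign were, with fiber genes, for Fhl2 0.236 in 1C, 0.556 in RPC, 0.431 at 2d, 0.962 at 6d and -0.338 from 6d to 12d, for Lmod2 0.338 in 1C and -1.182 from 2d to 12d, for Ebf1 1.476 at 2d, 0.102 at 1d post-CFA and -0.762 from 2d to 12d, for Rnd1 0.333 at 6d, for Fhl3 0.050, Fhod1 0.476 and Myl9 0.623 at 6d, for Lmod3 -0.280 from 2d to 12d and for Tmod2 -0.044 from 6d to 12d. With library totals, they were 0.085 and -0.121 for Lmod2 in 1C and RPC, -0.047 for Lmod2 from 2d to 12d, 0.253 and -0.070 for Ebf1 at 2d and in RPC, and 0.218 for Fhl2 at 6d. Lmod2 from 2d to 12d was also at -0.032 in 1 fit of all libraries and -0.012 with DESeq2 or its size factors.

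With the salivary covariate they were -0.413, -0.162 and -0.129 for Lmod2 from 2d to 12d, at 12d and from 2d to 6d, -0.012 and -0.007 for Ebf1 in 1C and from 2d to 12d, -0.015 and 0.121 for Fhl2 at 12d and in RPC, and -0.090 for Rnd1 at 12d. Without salivary-rich libraries they were -0.991, -0.302 and -0.726 for Lmod2 at 2d, 6d and 12d, -0.157 and -0.003 for Ebf1 in 1C and at 12d, -0.460 for Fhl2 and -0.255 for Rnd1 at 12d.

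With 1 mouse left out, ranges that crossed 0 were -0.167 to 0.270, -0.152 to 0.327, -0.353 to 0.123 and -0.033 to 0.454 for Ebf1 in 1C, RPC, 2d and 12d and -0.598 to 0.072 at 1d post-CFA, -0.609 to 0.107, -0.510 to 0.295, -0.560 to 0.113 and -0.024 to 0.581 for Fhl2 in 1C, RPC, 6d and 12d, -0.501 to 0.330, -0.233 to 0.577, -0.272 to 0.604 and -0.227 to 0.574 for Lmod2 in 1C, RPC, 2d and 12d and -0.108 to 0.093 from 2d to 12d, and -0.206 to 0.168 and -0.092 to 0.195 for Rnd1 at 12d and at 1d post-CFA.

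Same-numbered mice did not vary together (r from -0.397 to 0.573, not over 0.1 in all pairs of any comparison), so the numbers give no pairing. With the replicate block, 1 member, Fhl2 (-1.86), was called lower at 2d, Fhl2 from 2d to 6d and Rnd1 and Fhl2 from 6d to 12d were called higher (adjusted p = 0.0105, 0.0182 and 0.0257, edgeR), Rnd3 and Fhl3 at 6d were not called (0.0717 and 0.0772), and Ebf1 was at -0.024 in 1C and -0.032 in RPC. With the block, 2183 of all 14373 genes were called lower at 2d. Genes called higher numbered 1042 of 14513 from 2d to 6d and 3509 of 14344 from 6d to 12d.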
